A study of Mus musculus with 12 samples.

Results

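The genes described here are 10 immune checkpoint receptors and ligands, namely Pdcd1, Cd274, Pdcd1lg2, Ctla4, Lag3, Havcr2, Tigit, Icos, Btla and Cd160. All 10 were found among the 50600 gene identifiers of the count files. RNA-seq had been performed on 12 mouse libraries, 3 mice in each of 4 groups. Ctrl were thymocytes of mice with floxed Dnmt1 alleles and no Cre (genotype DNMT1 fl/fl). KO were thymocytes in which Dnmt1, the maintenance DNA methyltransferase, was deleted in the T lineage (DNMT1 fl/fl CD4-CRE). ALK were T cell lymphoma cells of mice carrying the human fusion kinase NPM-ALK (NPM-ALK+). ALKKO were thymocytes carrying both changes (NPM-ALK+, DNMT1 fl/fl CD4-CRE). The transgene was driven by Cd4 enhancer and promoter elements, so that neither the kinase nor the deletion was directed to cells outside the T lineage. Tissue was homogenized without a sort, so RNA of other cells of the thymus or tumor was included. The mice were 19 to 31 wk old, the ALK mice 22 to 31 wk, and all were male except KO replicate 2. The ALK group differed from the other groups in tissue (tumor against thymus), and its label names no floxed Dnmt1 alleles. These differences cannot be told apart from that of the transgene in any comparison with it.

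Checkpoint receptors are surface proteins that tune T cell activation after the T cell receptor has bound antigen. PD-1 (encoded by Pdcd1) is inhibitory and binds PD-L1 (Cd274) and PD-L2 (Pdcd1lg2). CTLA-4 competes with the costimulatory receptor CD28 for CD80 and CD86, whereas ICOS is a costimulatory relative of CD28 with its own ligand. LAG-3 binds MHC class II, TIM-3 (Havcr2) has several partners including galectin-9 and CEACAM1, TIGIT competes with CD226 for the poliovirus receptor, and BTLA and CD160 share the ligand HVEM (Tnfrsf14). In the thymus many of these receptors appear on maturing or self-reactive thymocytes that have received a T cell receptor signal. BTLA is also found on B cells and dendritic cells, and PD-L1 on many cell types.

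Reads assigned to genes numbered 12473857 to 18864327 per library, so that 3 reads corresponded to 0.159 to 0.241 CPM, the counts scaled to library size. CPM values here include a factor from TMM, a normalization for library composition. Dnmt1 was at 400, 445 and 487 CPM in Ctrl, at 206 to 244 in KO, at 205 to 244 in ALKKO and at 379 to 788 in ALK. Reads on Alk were at most 0.431 CPM in Ctrl and KO and 34.9 to 55 CPM in ALK and ALKKO. The labelled cell type was checked against 15 thymocyte and T cell genes. Their summed level was 12644 to 15708 CPM in Ctrl, 11389 to 13374 in ALKKO and 4638 to 7255 in ALK. Of 14 tested in ALK against Ctrl 6 were called, all lower, beside 20.4% of all genes called and 12% called lower. Cd4, Cd8a and Cd8b1 fell, and Cd3e and Lck were not called. Cd3d was at 212, 2.27 and 13.5 CPM in ALK beside 392 to 468 in Ctrl. Ptcra and Cd2 had higher means in ALK (200 ± 202 and 263 ± 226 CPM, SD) than in Ctrl (47.6 and 166 CPM). KO replicate 2 stood apart from every other library: its 10 B cell genes summed to 6043 CPM against 32.3 to 2717 elsewhere, its 14 myeloid and dendritic genes to 3135 CPM against 444 to 1255, and its T cell genes to 5442 CPM. Rag1 and Itgam were listed at 0 in all 12 libraries and checked nothing. In bulk RNA, fewer cells of a type and less RNA per cell cannot be told apart.

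In control thymocytes all 10 genes were expressed, at levels that differed widely. Divided by exon length (RPKM), the order by mean in Ctrl was Cd274 at 23.5 ± 3.12 (SD, n = 3), Pdcd1 at 13.8 ± 3, then Btla (9.27), Icos (9.22) and Lag3 (9.01), which did not differ beyond their spread, then Ctla4 (4.24), Havcr2 (3.75), Tigit (2.85), Pdcd1lg2 (2.08) and Cd160 at 1.3 ± 0.212. In ALK tumors the order was different: Ctla4 had the highest mean at 12.7 ± 12.7 RPKM, with an SD as large as the mean, followed by Cd274 at 7.03 ± 1.5, while Tigit was the lowest at 0.0884 ± 0.0853.

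**Figure D1:**
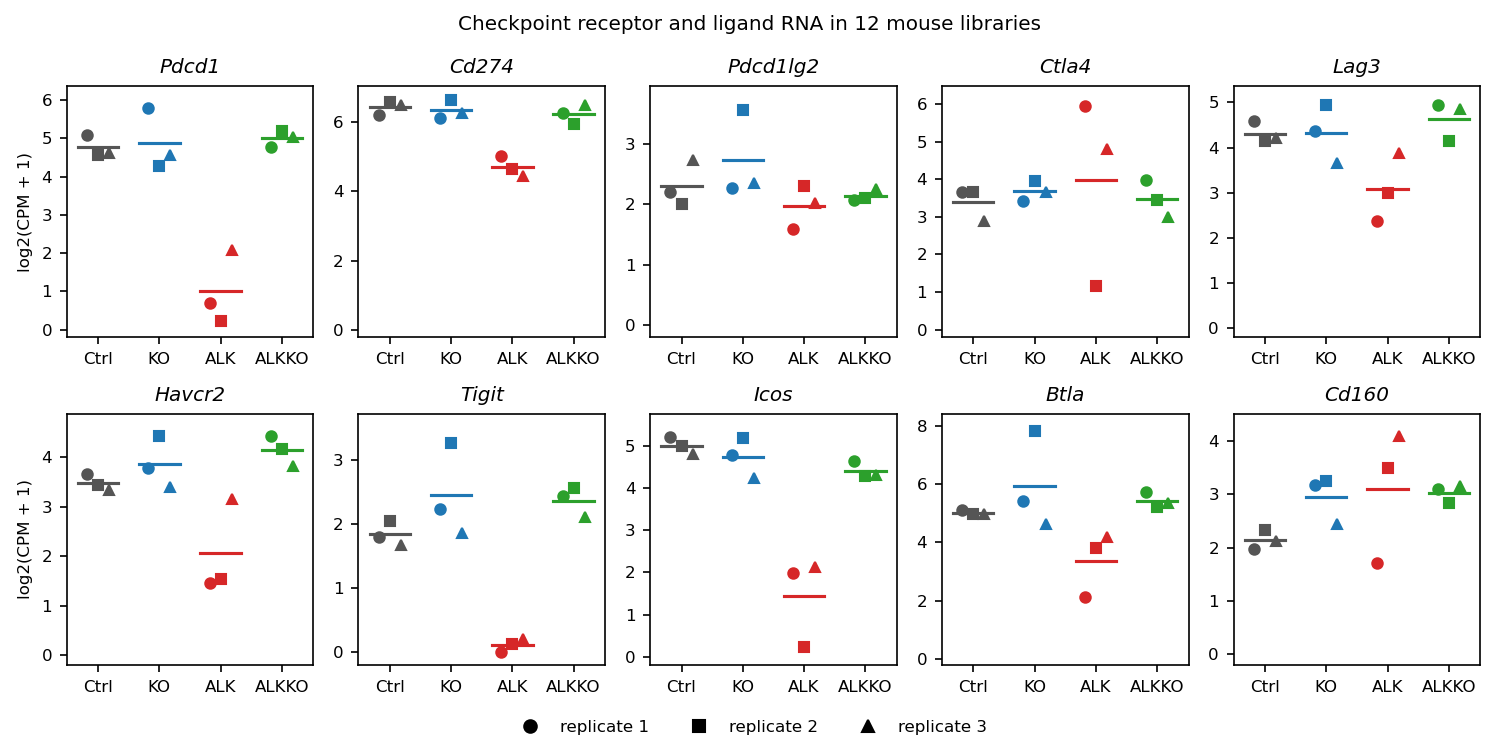
Levels of the 10 checkpoint genes by library. Each panel shows 1 gene, the x axis the 4 groups and the y axis log2(CPM + 1); points are single mice (circle, square and triangle for replicates 1, 2 and 3) and bars are group means. Pdcd1, Cd274, Tigit, Icos, Havcr2 and Btla sit lower in all 3 ALK tumors than in every other library. Ctla4 is spread from 1.22 to 60.3 CPM among the tumors, and Btla is highest in KO replicate 2.

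The first comparison asked how NPM-ALK lymphoma cells differed from control thymocytes. Tigit, Pdcd1, Icos and Cd274 fell in the tumors, and none passed the test as higher. Thus 4 of 10 were called, all lower, where a call required an adjusted p under 0.05 and a log2 fold change beyond 1 in edgeR's quasi-likelihood test. Among all 16052 genes tested, 20.4% were called and 12% were called lower. The median log2 fold change of the 10 genes was -1.45, beside 0.05 over all genes tested. In 7 of the 10 the tumors lay below all Ctrl libraries without overlap, as did 25.1% of all genes tested. All 10 had passed the filter on low counts, although Tigit, Pdcd1 and Icos passed through the thymus libraries, where they were high, since they had fewer than 10 reads in 3, 2 and 1 of the tumors.

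Pdcd1 was at 33.2, 22.8 and 23.7 CPM in Ctrl and at 0.605, 0.175 and 3.21 CPM in ALK. The tumor values rested on 9, 2 and 41 reads, and all were below the lowest thymus library of any group (18.3 CPM). The difference was 19.9-fold (log2 -4.31 ± 0.802 (SE), adjusted p = 0.00373, edgeR quasi-likelihood test). Each SE of a log2 fold change was back-calculated from that change and the F statistic of its test, and is approximate. The PD-1 ligand Cd274 was at 72.3, 93.9 and 89.1 CPM in Ctrl and at 31.4, 24.1 and 20.8 CPM in ALK. The groups did not overlap and the tumors were close to each other, and the SE was the smallest of the 10 genes (log2 -1.74 ± 0.213, adjusted p = 0.000592, 3.34-fold lower). The other PD-1 ligand, Pdcd1lg2, was at 3.59, 3 and 5.66 CPM in Ctrl and at 2.02, 3.93 and 3.05 CPM in ALK, which overlapped (log2 -0.45 ± 0.478, adjusted p = 0.506).

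Tigit was at 2.48, 3.16 and 2.21 CPM in Ctrl. In the tumors it was represented by 0, 1 and 2 reads, 3 in all, against 147 reads in the 3 Ctrl libraries. Relative to library size this was a ratio of 34.2, with a 95% exact interval of 11.5 to 168 that covers counting error only. The fitted change was log2 -4.93 ± 0.778 (adjusted p = 0.00182), a value that depends on the prior count of the fit because the tumor counts were so low. Icos was at 36.5, 31.1 and 27.3 CPM in Ctrl and at 2.96, 0.175 and 3.36 CPM in ALK, a 14.4-fold difference without overlap (log2 -3.85 ± 0.693, adjusted p = 0.00323).

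The promoter windows of the genes that fell and had an entry are shown with that of Ctla4, which lies beside Icos in the genome and was not lower as a group. Each runs from 250 bases before to 50 bases after the RefSeq start (GRCm38.p6), 5′ to 3′ on the strand of the gene, with CG dinucleotides, the substrate of DNMT1, in capitals. Entries were found for 8 of the 10 genes, none for Icos or Lag3. Methylation of these bases was not analysed here.
Pdcd1, chr1:94052504-94052803, minus strand: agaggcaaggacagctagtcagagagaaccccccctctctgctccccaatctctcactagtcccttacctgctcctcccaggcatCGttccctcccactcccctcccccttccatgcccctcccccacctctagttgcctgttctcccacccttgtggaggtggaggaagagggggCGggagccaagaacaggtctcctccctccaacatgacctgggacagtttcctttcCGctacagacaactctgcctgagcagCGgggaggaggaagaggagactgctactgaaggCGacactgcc
Cd274, chr19:29367188-29367487, plus strand: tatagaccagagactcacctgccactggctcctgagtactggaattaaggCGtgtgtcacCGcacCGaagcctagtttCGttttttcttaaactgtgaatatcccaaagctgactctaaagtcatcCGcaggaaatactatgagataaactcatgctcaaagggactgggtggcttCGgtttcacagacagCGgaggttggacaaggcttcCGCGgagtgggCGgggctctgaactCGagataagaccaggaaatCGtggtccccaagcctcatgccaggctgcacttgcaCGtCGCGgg
Tigit, chr16:43664135-43664434, minus strand: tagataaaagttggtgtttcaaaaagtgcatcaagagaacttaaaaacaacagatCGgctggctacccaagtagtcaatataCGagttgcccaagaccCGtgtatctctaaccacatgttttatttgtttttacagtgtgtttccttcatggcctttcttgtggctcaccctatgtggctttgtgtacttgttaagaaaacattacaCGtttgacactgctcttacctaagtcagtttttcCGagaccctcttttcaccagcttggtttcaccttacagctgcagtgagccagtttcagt
Ctla4, chr1:60908775-60909074, plus strand: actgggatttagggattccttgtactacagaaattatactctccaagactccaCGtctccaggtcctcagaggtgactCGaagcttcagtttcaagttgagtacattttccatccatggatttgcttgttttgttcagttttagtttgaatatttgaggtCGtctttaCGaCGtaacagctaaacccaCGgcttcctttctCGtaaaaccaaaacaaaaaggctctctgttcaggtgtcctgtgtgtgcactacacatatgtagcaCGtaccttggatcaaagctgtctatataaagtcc
The Cd274 window holds 15 CG dinucleotides, more than 65.1% of the 32544 promoter windows of the table, whose median is 7 and quartiles 3 and 20. The Pdcd1 and Tigit windows hold 5 each and the Ctla4 window 8. On both strands 6 motifs were searched. The IRF motif GAAANNGAA occurred in the Cd274 window, as TTCGGTTTC beginning 76 bases before the start, and in those of Ctla4 (TTCAGTTTC, 166 bases before) and Btla, beside 8.53% of all windows. The NFAT motif TGGAAA occurred in the Ctla4 window (read as TTTCCA, 144 bases before) beside 21.5%. The AP-1 motif TGANTCA occurred in the Havcr2 window (7.79% of all), the MYC E-box CACGTG in that of Btla (7.17%) and the STAT motif TTCNNNGAA in 1 of the 2 Cd160 windows (8.33%). The NR4A motif AAAGGTCA, present in 1.52% of all, was in none of the 9 windows of these genes, and no motif of the 6 was in those of Pdcd1, Tigit and Pdcd1lg2. A match is a description of letters and no match says only that these letters are not in the window.

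Lag3, Havcr2 and Btla were lower in every tumor than in every Ctrl library, but did not pass the test. Lag3 was at 23, 16.7 and 17.4 CPM in Ctrl and at 4.17, 6.98 and 13.7 CPM in ALK (log2 -1.20 ± 0.459, adjusted p = 0.0721). Havcr2 was at 11.7, 9.86 and 9.06 CPM in Ctrl and at 1.75, 1.92 and 7.9 CPM in ALK (log2 -1.40 ± 0.549, adjusted p = 0.0776). For both genes ALK replicate 3 was the highest tumor, and this was also the tumor with the highest summed myeloid and dendritic genes (1255 CPM against 496 and 444). Trac, the constant part of the T cell receptor alpha chain, was also highest there (298 CPM against 5.85 and 6.55). The 15 T cell genes as a set were not, with sums of 4638, 7255 and 5277 CPM in ALK replicates 1, 2 and 3. ALK replicate 3 came from the oldest mouse, at 31 wk. The part of these differences in the result was not tested. Without that tumor both genes were called lower (Lag3 log2 -1.78, adjusted p = 0.0154, and Havcr2 log2 -2.49, adjusted p = 0.0022). Both were also called lower with labelled age as a term (Lag3 log2 -1.64, adjusted p = 0.0341, and Havcr2 log2 -2.36, adjusted p = 0.00813) and by DESeq2's Wald test (adjusted p = 0.0268 and 0.0247). Over all 15 alternatives the adjusted p ran from 0.0154 to 0.181 for Lag3 and from 0.0022 to 0.19 for Havcr2.

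Btla was at 33.4, 30.4 and 30.6 CPM in Ctrl and at 3.36, 12.9 and 17.4 CPM in ALK (log2 -1.49 ± 0.768, adjusted p = 0.166). It stood at 226 CPM in KO replicate 2, a library of the same fit and the only one from a female mouse. With sex as a term Btla was called lower in ALK (log2 -1.49, adjusted p = 0.0381), as it was with KO replicate 2 left out of the fit, an alternative chosen after seeing the data (log2 -1.52, adjusted p = 0.0373). A sex term fits that library alone, so these are nearly the same alternative and not separate support. Without that library the number of checkpoint genes called rose from 4 to 5, beside 22.9% of all genes called. Over all 15 alternatives the adjusted p of Btla ran from 0.0373 to 0.333.

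Ctla4 and Cd160 had higher means in the tumors than in Ctrl, and neither passed the test. Ctla4 was at 11.6, 11.6 and 6.36 CPM in Ctrl and at 60.3, 1.22 and 27.1 CPM in ALK (log2 1.58 ± 0.889, adjusted p = 0.2). ALK replicates 1 and 3 were above every thymus library and replicate 2 was below every thymus library. Without ALK replicate 2 Ctla4 was called higher (log2 2.13, adjusted p = 0.0108). Cd160 was at 2.91, 4.02 and 3.34 CPM in Ctrl and at 2.28, 10.3 and 16 CPM in ALK (log2 1.47 ± 0.573, adjusted p = 0.0762), with replicate 1 below Ctrl and replicates 2 and 3 above every other library. Cd160 was called higher without ALK replicate 1 (log2 1.94, adjusted p = 0.00406) and also, with all libraries, by DESeq2's Wald test (log2 1.44, adjusted p = 0.0336). The tumor that was lowest for Ctla4 was therefore not the tumor that was lowest for Cd160.

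**Figure D2:**
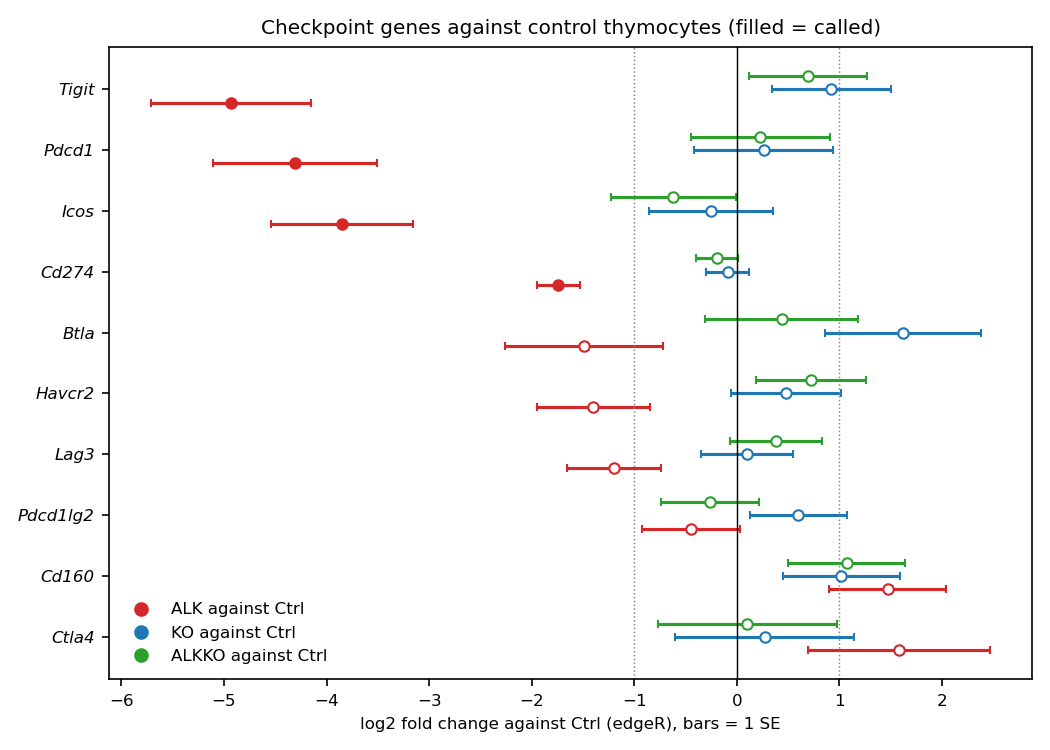
Fold changes of the 10 checkpoint genes against Ctrl. The x axis is the log2 fold change from edgeR and bars are 1 SE; colors separate ALK, KO and ALKKO, filled points were called and dotted lines mark a log2 fold change of 1 in either direction. Only Tigit, Pdcd1, Icos and Cd274 in ALK are filled, and no point of KO or ALKKO is.

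Genes that neighbour a checkpoint gene did not all share its value. On chromosome 1 Cd28, Ctla4 and Icos follow each other, with 113641 bp between Cd28 and Ctla4 and 62095 bp between Ctla4 and Icos. Icos fell, Ctla4 was uneven among tumors, and Cd28, the costimulatory receptor, was at 24.7, 148 and 201 CPM in ALK beside 395 to 415 CPM in Ctrl (log2 -1.71 ± 0.605, adjusted p = 0.0558). On chromosome 19 Cd274 lies 65 bp from Plgrkt (log2 -0.45 ± 0.172, adjusted p = 0.0721) and 22824 bp from Pdcd1lg2, and of these 3 genes Cd274 was the one that was called. On chromosome 6 Lag3 lies between Cd4, 16140 bp away, and Ptms, 1976 bp away, and both of these fell (log2 -4.50 ± 0.562, adjusted p = 0.00065, and log2 -1.28 ± 0.134, adjusted p = 0.000344). The annotated spans of Cd160 and Pdzk1 overlap by 67 bp, and Pdzk1 was at 0.34 CPM in Ctrl.

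The direct binding partners of the 10 receptors and ligands were described from a list of 14, of which 13 could be tested. This list and those below were chosen with earlier results of these data known, so their counts are descriptive only. In ALK against Ctrl 7 were called, 1 higher and 6 lower, beside 20.4% of all genes called and 12% called lower. Cd80 and Cd86, the shared ligands of CD28 and CTLA-4, fell: Cd86 was at 28.6, 23.7 and 23.3 CPM in Ctrl and at 1.88, 2.97 and 11.3 CPM in ALK (log2 -2.23 ± 0.646, adjusted p = 0.0266), and Cd80 had a log2 fold change of -2.17 ± 0.528 (adjusted p = 0.0126). Both TIGIT-axis genes Cd226, the activating competitor, and Pvr, the shared ligand, fell (log2 -3.83 ± 0.759, adjusted p = 0.00504, and log2 -1.63 ± 0.333, adjusted p = 0.00572). Cd226 was at 19.8, 14 and 20.6 CPM in Ctrl and at 0.269, 0.349 and 3.21 CPM in ALK, again with the highest tumor value in replicate 3, as for Pdcd1, Lag3 and Havcr2. H2-Aa and H2-Ab1, the MHC class II chains bound by LAG-3, fell with log2 -3.44 ± 0.534 and -2.87 ± 0.371.

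Ceacam1, a partner of TIM-3, rose, but unevenly. It was at 3.17, 3.43 and 4.74 CPM in Ctrl and at 6.65, 22.7 and 115 CPM in ALK (log2 3.67 ± 0.987, adjusted p = 0.0197). The groups did not overlap and the tumors spanned from just above Ctrl to far above it. Lgals9, which encodes galectin-9, was at 336 to 361 CPM in Ctrl beside 382 to 446 CPM in ALK (log2 0.24 ± 0.157, adjusted p = 0.274). Tnfrsf14, the ligand shared by BTLA and CD160, had a log2 fold change of -0.56 ± 0.248 (adjusted p = 0.111), Icosl one of -1.60 ± 0.764 (adjusted p = 0.136), Nectin2 one of -0.25 ± 0.74 (adjusted p = 0.824) and Cd96 one of -2.63 ± 1.1 (adjusted p = 0.0937).

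Markers of other cell types in ALK against Ctrl differed from list to list. The summed level of 10 B cell genes was 1053 to 1374 CPM in Ctrl but 32.3 to 147 CPM in the tumors, with 10 of 10 lower in their fitted value and 3 called. Of 13 myeloid and dendritic genes tested 4 were called, all lower: Flt3, Xcr1, Cd209a and Zbtb46, which mark dendritic cells. Of the 9 not called, Fcgr3, an Fc receptor of myeloid cells, was at 14.4, 16.1 and 14.9 CPM in Ctrl and higher in every tumor at 18.2, 32 and 36.8 CPM (log2 0.94 ± 0.268, adjusted p = 0.0246), short of the fold required for a call. Csf1r, Lyz2, Adgre1, C1qa, Cd68 and Mpeg1 had log2 fold changes between -0.17 and 0.20, Itgax one of -0.93 ± 0.525 and Siglech one of -2.04 ± 1.17. Of the 8 regulatory T cell genes 3 were called lower, among them Foxp3 with log2 -4.81 ± 1.02 (adjusted p = 0.0068), and 1 higher (Nrp1), and their sum was 249 to 301 CPM in Ctrl beside 136 to 442 CPM in ALK. Of 10 NK and innate-like T cell genes 6 were called lower, with sums of 107 to 136 CPM in Ctrl beside 24.2 to 80.7 CPM in ALK. Of 10 thymic epithelial and stromal genes 4 were called lower and Col1a1 higher, with sums of 790 to 876 CPM in Ctrl beside 610 to 858 CPM in ALK. Col1a1 alone gave 243 to 702 CPM of the sums in ALK, whereas the epithelial genes Psmb11 and Krt8 were at 106 to 130 and 206 to 286 CPM in Ctrl and at 0.0672 to 0.349 and 0.873 to 23 CPM in ALK. Each of these counts stands beside 20.4% of all genes called and 12% called lower in ALK against Ctrl. The part of these cell types in the checkpoint results was not tested.

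**Figure D3:**
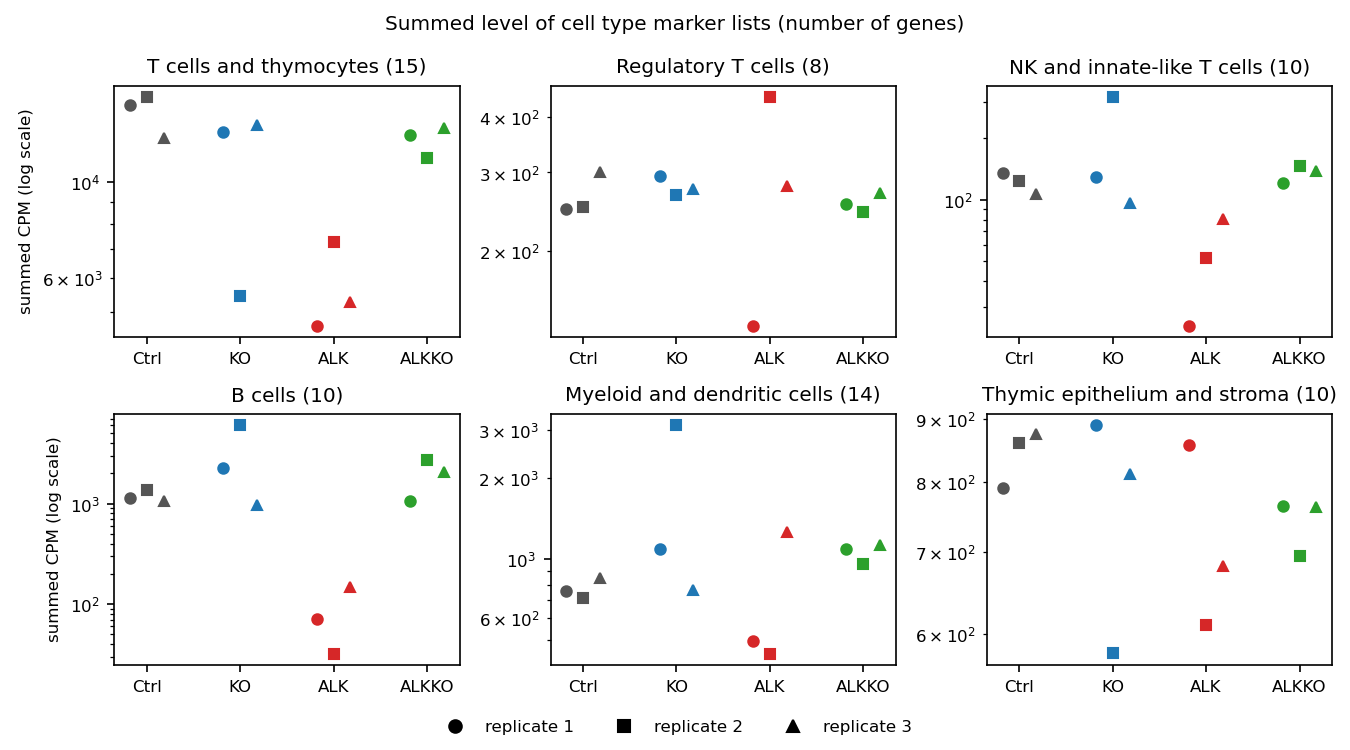
Summed CPM of 6 lists of cell type marker genes in each library, on a log scale; the number of genes is given in the title of each panel and points are single mice. B cell genes are lowest in the 3 ALK tumors (32.3 to 147 CPM) and highest in KO replicate 2 (6043 CPM), which is also the highest library for myeloid and dendritic genes.

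The wider list of 42 binding partners and pathway genes, which includes the 14 direct partners, was described in the same way. Of 36 tested in ALK against Ctrl, 20 were called, 2 higher and 18 lower, beside 20.4% of all genes called and 12% called lower. Their median log2 fold change was -1.60, beside 0.05 over all genes tested. The list was chosen with earlier results of these data in view, so these values describe it and do not test it against all genes. The largest falls beyond the direct partners were those of Cd5, an inhibitory coreceptor of the T cell receptor (231 to 275 CPM in Ctrl, 0.786 to 2.22 CPM in ALK, log2 -7.14 ± 0.407, adjusted p = 6.82e-06), and Cd40lg, the ligand of CD40, with 2 reads in the 3 tumors against 451 in Ctrl, a ratio of 157 (95% exact interval 43.3 to 1302). Tnfrsf9, which encodes the costimulatory receptor 4-1BB, and Cd40 followed (log2 -3.64 ± 0.407, adjusted p = 0.00042, and log2 -3.59 ± 0.595, adjusted p = 0.00235). Cd276, which encodes the B7 family ligand B7-H3, rose from 2.06, 1.23 and 2.75 CPM in Ctrl to 10.3, 8.29 and 6.57 CPM in ALK (log2 2.06 ± 0.375, adjusted p = 0.00334). Col1a1, a gene of fibroblasts, rose in the same tumors, being at 14.2 to 28.6 CPM in controls and 243 to 702 CPM in tumors. Pdgfra, of the same stromal list, was at 4.88 to 10.7 CPM in controls and overlapped them in tumors at 3.93 to 15.9 CPM. The part of stromal cells in the Cd276 value was not tested.

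The signalling genes downstream of the receptors were described from a list of 14. In edgeR's fit 0 of 14 passed both thresholds in ALK against Ctrl, beside 20.4% of all genes. Of the 14, 3 had an adjusted p under 0.05 (Pik3r1, Vav1 and Akt1) and 4 an unadjusted p under 0.05. The share of all genes at these p thresholds alone was not computed, so these counts cannot be set beside it. The median log2 fold change of the 14 was -0.42, beside 0.05 over all genes tested. Ptpn11, which encodes the phosphatase SHP-2 recruited by PD-1, was at 173 to 183 CPM in Ctrl beside 127 to 191 CPM in ALK. Of 24 transcription factors known to act on checkpoint genes 9 were called, 1 higher and 8 lower, beside the 20.4% of all genes called and 12% called lower. Nr4a1 and Nr4a3, nuclear receptors induced by T cell receptor signalling, fell (log2 -5.27 ± 0.424, adjusted p = 6.89e-05, and log2 -5.25 ± 0.523, adjusted p = 0.000286). Eomes, a T-box factor, fell to 3 reads in the tumors, a ratio of 17.2 (95% exact interval 5.66 to 85.3), and Myc rose (log2 1.72 ± 0.207, adjusted p = 0.000553). Tox, a factor linked to sustained PD-1 expression, had a log2 fold change of -0.80 ± 0.272 (adjusted p = 0.0484), short of the fold required for a call.

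The second comparison asked what Dnmt1 deletion did without the kinase. In KO against Ctrl edgeR called 0 of 10 checkpoint genes, 0 had an unadjusted p under 0.05, and DESeq2 called 0. Of all genes tested edgeR called 0.0187% and DESeq2's Wald test 0.262%. Fitted log2 fold changes ran from -0.25 ± 0.607 for Icos to 1.62 ± 0.761 for Btla. Cd274 was at 68, 97.2 and 74.8 CPM in KO, reaching below and above the Ctrl libraries (log2 -0.09 ± 0.206), and its SE was the smallest of the 10. Cd160 was at 7.95, 8.44 and 4.45 CPM in KO and lay above all Ctrl libraries (log2 1.02 ± 0.568, adjusted p = 0.864), the only one of the 10 in which KO did not overlap Ctrl. Of all genes tested 6.19% lay above all Ctrl libraries in KO. Pdcd1 was at 54.4, 18.3 and 22.6 CPM in KO, with replicate 1 the highest of all 12 libraries.

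KO replicate 2 was the highest library for several of these genes. Btla was at 41.6, 226 and 23.5 CPM in KO, and in that library, where the summed B cell genes were also highest, Icosl, the ligand of ICOS, was at 196 CPM against 38.7 or less elsewhere and Cd86, a ligand of CTLA-4, at 84.1 CPM against 36 or less. Tigit and Pdcd1lg2 were also highest there, at 8.61 and 10.8 CPM, as was Havcr2 among KO, at 20.4 CPM. It was the only female mouse of the series, so that sex and library cannot be told apart. Without it the log2 fold change of Btla in KO against Ctrl was 0.05 and that of Pdcd1lg2 was -0.04.

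The third comparison asked whether NPM-ALK thymocytes lacking Dnmt1 differed from control thymocytes. In ALKKO against Ctrl 0 of 10 checkpoint genes were called by edgeR, 0 had an unadjusted p under 0.05, and DESeq2 called 0. Of all genes tested edgeR called 0.181% and DESeq2's Wald test 0.611%. In 4 of 10 genes (Tigit, Havcr2, Btla and Cd160) ALKKO lay above all Ctrl libraries without overlap, as did 9.92% of all genes tested, and in 1 (Icos) it lay below, as did 7.56%. Tigit was at 4.42, 4.9 and 3.32 CPM in ALKKO (log2 0.69 ± 0.576), Havcr2 at 20.5, 16.9 and 13.2 CPM (log2 0.72 ± 0.535), Btla at 51.9, 36.3 and 39.9 CPM (log2 0.44 ± 0.746) and Cd160 at 7.57, 6.1 and 7.86 CPM (log2 1.07 ± 0.568). Each adjusted p was 1. In the same libraries 9 of 13 myeloid and dendritic genes lay above all Ctrl libraries without overlap, with sums of 955 to 1124 CPM beside 711 to 848 CPM in Ctrl, and their part in these values was not tested. Icos was at 24.2, 18.7 and 19 CPM (log2 -0.62 ± 0.61). Pdcd1 was at 26.3, 35.3 and 32.1 CPM, overlapping Ctrl (log2 0.23 ± 0.679), and Cd274 at 75.7, 60 and 87.4 CPM (log2 -0.19 ± 0.206).

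Among Dnmt1-deleted thymocytes, those with NPM-ALK were compared with those without. In ALKKO against KO 0 of 10 genes were called by edgeR, 0 had an unadjusted p under 0.05, and DESeq2 called 0. Of all genes tested edgeR called 0.00623% and DESeq2's Wald test 0.15%. The fitted log2 fold changes ran from -1.18 ± 0.753 for Btla to 0.28 ± 0.45 for Lag3, with a median of -0.14 beside -0.02 over all genes tested. The value of Btla turned to 0.39 without KO replicate 2 and with sex as a term. Alk reads were 49 to 55 CPM in ALKKO and 34.9 to 54.3 CPM in ALK, so that the transgene was read at overlapping levels in the thymi and the tumors.

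The comparison of ALK tumors with ALKKO thymocytes set both NPM-ALK groups side by side. Here 6 of 10 checkpoint genes were called, all lower in ALK: Tigit, Pdcd1, Icos, Havcr2, Lag3 and Cd274. Among all genes tested 19.6% were called and 12.6% were called lower. In 7 of 10 the tumors lay below every ALKKO library, as in 23.7% of all genes tested, the seventh being Btla (log2 -1.93 ± 0.777, adjusted p = 0.0874). Btla was called lower by DESeq2's Wald test (adjusted p = 0.0282). It was also called lower with sex as a term and without KO replicate 2 (adjusted p = 0.0145 in both). These are nearly the same alternative, since KO replicate 2 is the only library of a female mouse. Over 15 alternatives the adjusted p of Btla ran from 0.0145 to 0.187. Pdcd1 differed by log2 -4.55 ± 0.809 (adjusted p = 0.00329), Cd274 by -1.55 ± 0.212 (adjusted p = 0.0011) and Icos by -3.23 ± 0.677 (adjusted p = 0.00676). Tigit had 3 reads in ALK against 207 in ALKKO, a ratio of 55.2 (95% exact interval 18.6 to 270). Lag3 was at 29.6, 16.6 and 27.8 CPM in ALKKO (log2 -1.58 ± 0.463, adjusted p = 0.0291) and Havcr2 differed by log2 -2.13 ± 0.56 (adjusted p = 0.0185). These calls of Lag3 and Havcr2 were lost on leaving out ALK replicate 2 (adjusted p = 0.0847 and 0.0555) or ALKKO replicate 1 (0.0822 and 0.0545), and that of Lag3 also without ALK replicate 1 (0.0634) or ALKKO replicate 3 (0.0782). Only 3 genes (Pdcd1, Cd274 and Tigit) were called when ALK and ALKKO were fitted without the other groups, where 13.7% of all genes were called. Comparisons with Ctrl and with ALKKO share the ALK libraries.

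Of the direct partners 9 of 13 were called in ALK against ALKKO, 1 higher and 8 lower, beside 19.6% of all genes called and 12.6% called lower. Beyond the 7 called against Ctrl these were Cd96, another receptor of the poliovirus receptor, at 15.4, 52 and 86.2 CPM in ALKKO and 0.134, 3.06 and 9.7 CPM in ALK (log2 -3.58 ± 1.14, adjusted p = 0.0392), and Tnfrsf14 at 37.7, 33.4 and 33.2 CPM in ALKKO and 17.5, 9.95 and 20.2 CPM in ALK (log2 -1.13 ± 0.25, adjusted p = 0.00875). In the list of 42, 20 of the 36 tested were called, 2 higher and 18 lower, beside the same shares. The limit from the choice of these lists holds here too.

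**Figure D4:**
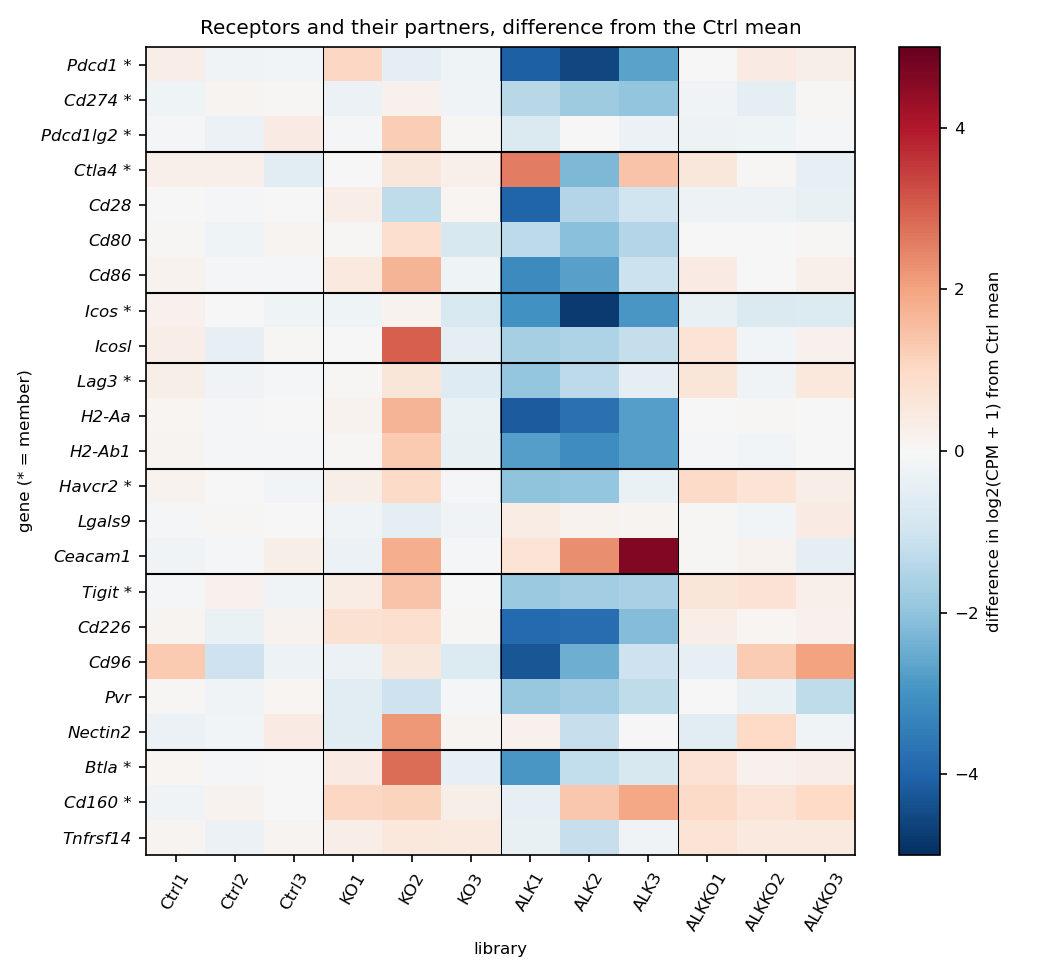
Checkpoint genes (asterisks) grouped with their binding partners, 23 genes in rows and 12 libraries in columns. Color gives the difference in log2(CPM + 1) from the mean of the 3 Ctrl libraries, blue lower and red higher; the ALK columns are blue for most receptors and ligands, Ceacam1 is red in ALK replicates 2 and 3, and KO replicate 2 is red for Btla and Icosl.

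The last comparison tested whether the effect of NPM-ALK differed with Dnmt1 intact and with Dnmt1 deleted, as the difference between ALK minus Ctrl and ALKKO minus KO. It was called for 4 of 10 genes, all in the direction of a lower value with Dnmt1 intact: Tigit (log2 -4.69 ± 0.963, adjusted p = 0.0164), Pdcd1 (log2 -4.28 ± 1.03, adjusted p = 0.0287), Icos (log2 -3.48 ± 0.897, adjusted p = 0.0369) and Cd274 (log2 -1.64 ± 0.294, adjusted p = 0.0101). Among all genes tested 8.93% were called and 5.62% were called lower. The ALK libraries are tumors and the other 3 groups are thymi, so that tumor formation cannot be told apart from Dnmt1 status in this contrast. The count fell to 2 (Cd274 and Tigit) on leaving out any 1 of Ctrl replicates 1, 2 and 3, KO replicate 3, or ALKKO replicates 1, 2 and 3, where the adjusted p of Pdcd1 was 0.0565 to 0.0771 and that of Icos 0.0658 to 0.0928. In these fits 3.38% to 5.09% of all genes were called. The count was 6 without ALK replicate 3, with Lag3 (adjusted p = 0.0402) and Havcr2 (adjusted p = 0.00886) added, beside 12.8% of all genes called. Cd274 and Tigit were called under every alternative in which they were tested. For the other genes the difference ran from log2 -1.65 ± 0.763 (Havcr2, adjusted p = 0.189) to 1.75 ± 1.24 (Ctla4, adjusted p = 0.393).

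The genes with a profile nearest to the 3 checkpoint genes of largest change were found by the mean absolute difference in log2(CPM + 1), centred on Ctrl, over the 12 libraries. Nearest to Tigit were Gcsam (0.193) and Tlr11 (0.216). Nearest to Pdcd1 were Cd7 (0.297), a T cell surface protein, at 19.2 ± 2.42 CPM in Ctrl and 0.891 ± 1.13 CPM in ALK (SD, n = 3), and Hpgd (0.328). Nearest to Icos were Gmfg (0.355) and Penk (0.356), which encodes proenkephalin and was at 8.39 ± 0.867 CPM in Ctrl and 0.104 ± 0.181 CPM in ALK. For a single gene an exact two-sided permutation test of 3 mice against 3 cannot give a p below 0.1, so the p-values above come from the fit across all genes and measure the spread between these mice.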

How the data were processed

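Poly(A) RNA of 12 mice, 3 in each group, had been sequenced as stranded single-end libraries from homogenized tissue, and groups were taken from the genotype and cell type labels. The authors trimmed reads with Trim Galore, aligned them to mm10 with STAR and deposited raw HTSeq counts per gene, 1 file per mouse; the aligner version, annotation release and strand setting are not given in the sources used here. Rows that name no gene (43.8% to 55.3% of reads) were left out. Of 50600 gene identifiers 50376 were matched to GENCODE M21 for symbols, exon lengths and positions. Reads on overlapping genes could not be assigned by the counting.

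The tests used edgeR 4.0.16 (R 4.3.3) on these counts, with TMM (factors 0.913 to 1.06), the filterByExpr filter (16052 genes), a robust quasi-likelihood fit of all 12 libraries with 1 term per group, and Benjamini-Hochberg adjustment over all genes tested. Calls required both an adjusted p below 0.05 and a log2 change beyond 1 in either direction. The procedure was tested on simulated data. DESeq2 1.42.0, other filters and scalings, sex, age, a replicate block and leaving out each library were tried as alternatives. A log2(CPM + 1) scale was used for the plots and profiles. Exact intervals cover counting error only. Promoter windows came from RefSeq (GRCm38.p6). The 10 genes and the gene lists were chosen with earlier results of these data known. Named beside them are, by rule, direct binding partners and, of the other pathway genes averaging 1 CPM or more, up to 4 called in each direction with the largest change in ALK against Ctrl, plus examples of other lists.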

Additional observations from a re-analysis of the deposited data

Results flagged for a closer look

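For 4 checkpoint genes the effect of NPM-ALK differed between mice with intact and with deleted Dnmt1 in a test of the difference itself (ALK minus Ctrl less ALKKO minus KO, edgeR's quasi-likelihood test, 3 mice a group). The log2 difference was -4.28 for Pdcd1, -1.64 for Cd274, -4.69 for Tigit and -3.48 for Icos. Among all genes tested 8.93% were called in this contrast and 5.62% were called lower. The ALK libraries are tumors and the other groups are thymi, so that tumor formation and Dnmt1 status cannot be told apart here. All 3 ALK libraries were below all 3 Ctrl libraries for each of these genes, whereas ALKKO overlapped KO. The tests of Pdcd1 and Icos missed the threshold in 7 and 9 of 18 alternatives each, and those of Cd274 and Tigit in none of the 19 and 18 in which they could be tested.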

How the results depend on the processing

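Across the alternatives the number of checkpoint genes called in ALK against Ctrl was 4 as reported, 7 with DESeq2's Wald test (6 lower, and Cd160 higher), 4 to 6 on leaving out 1 library, and 1 of 7 tested when at least 10 counts in every library were required, a filter that removed Pdcd1, Tigit and Icos. In the same order the share of all genes called was 20.4%, 24.7%, 12.8% to 22.9% and 14.7%. In ALK against ALKKO it was 3 of 7 under that filter, 3 when only the groups compared were fitted, and 4 to 7 on leaving out 1 library. Here the share of all genes called was 12.8%, 13.7% and 13.5% to 22.4%, beside 19.6% as reported. In the test of the difference in the NPM-ALK effect it was 1 of 7 under that filter and 2 to 6 on leaving out 1 library, and a fit of only the groups compared cannot be made since it uses all 4. For that test the share of all genes called was 5.59% and 3.38% to 13.3%, beside 8.93% as reported. The wider pathway list had 13 calls in ALK against ALKKO under that filter, and 15 to 23 and 16 to 25 calls in ALK against Ctrl and against ALKKO on leaving out 1 library. No alternative gave a call in the 3 comparisons among thymi. Replicate numbers were not used to pair the mice in the main fit. Deviations from the group means correlated at -0.143 to 0.445 between same-numbered libraries, the highest being KO and ALKKO replicate 1. These values do not settle whether any mice were paired. With a replicate block 4, 5 and 3 checkpoint genes were called in ALK against Ctrl, in ALK against ALKKO and in the difference, losing Lag3 (adjusted p = 0.0548) and Icos (adjusted p = 0.0618), and 20 and 18 of the pathway list. The share of all genes called was then 18.1%, 17.3% and 6.96%.

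Signs turned in 32 of the values of single genes under an alternative, none of them called. In KO against Ctrl these were Pdcd1 -0.39 and Cd274 0.00 without KO replicate 1, Pdcd1lg2 -0.04 and Lag3 -0.28 both without KO replicate 2 and with sex as a term, and Lag3 -0.01 without Ctrl replicate 2. In ALKKO against Ctrl these were Pdcd1lg2 0.04 and Ctla4 -0.15 without Ctrl replicate 3 and Ctla4 -0.22 without ALKKO replicate 1. In ALKKO against KO these were Pdcd1 0.09 with the replicate block, 0.61 without KO replicate 1 and 0.09 without ALKKO replicate 1, Ctla4 0.07 and Cd160 -0.02 without ALKKO replicate 3, Cd160 -0.18 without KO replicate 3, Cd274 0.04 without ALKKO replicate 2, Havcr2 -0.02 and Cd160 -0.03 with age as a term, and Cd274 0.06, Tigit 0.41 and Btla 0.39 both without KO replicate 2 and with sex as a term. In ALK against ALKKO these were Pdcd1lg2 0.05 without ALK replicate 1 and Cd160 -0.20 without ALK replicate 3. In the difference in the NPM-ALK effect these were Pdcd1lg2 -0.24 with sex as a term and -0.27 without KO replicate 2, and Btla 0.03, 0.13 and 0.16 without KO replicate 1, KO replicate 3 and ALK replicate 1. For these values, leaving out single libraries gave ranges that ended, on the side of the reported sign, at 0.54 (Pdcd1), -0.25 (Cd274), 0.92 (Pdcd1lg2) and 0.36 (Lag3) in KO against Ctrl, -0.44 (Pdcd1lg2) and 0.33 (Ctla4) in ALKKO against Ctrl, -0.30 (Pdcd1), -0.23 (Cd274), -0.48 (Ctla4), -0.53 (Tigit), -1.64 (Btla) and 0.21 (Cd160) in ALKKO against KO, -0.45 (Pdcd1lg2) and 0.89 (Cd160) in ALK against ALKKO, and 0.75 (Pdcd1lg2) and -1.91 (Btla) in the difference. Beyond the removal of 3 genes by the stricter filter, the cause of these changes was not tested. Counts of 0 to 2 reads a library limit the precision of Tigit in ALK.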
